A study of Mus musculus with 2 samples.

Results

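The neutrophils described here were 83 of the 18539 barcodes kept from a pair of single-cell RNA libraries of CD45+ cells (leukocytes) from mouse B16-F10 melanomas. They were chosen by a gate on unique molecular identifiers (UMIs), each of which counts 1 captured RNA molecule. A barcode had to have at least 500 UMIs and 200 genes, with at most 10% of its UMIs from mitochondrial genes. It then had to hold at least 5 UMIs of S100a8 plus S100a9, which encode the calcium-binding proteins that fill the neutrophil cytosol. It also had to hold at least 2 UMIs of Csf3r (the G-CSF receptor), Cxcr2 (a chemokine receptor), G0s2 and Retnlg together. At most 1 UMI of Csf1r, at most 1 of C1qa plus C1qb, and none of Cd3d, Cd3e, Cd3g or Cd79a were allowed, which are genes of macrophages, T cells and B cells. The DOPAC library gave 10 neutrophils among 10095 kept barcodes, and the Control library gave 73 among 8444. The levels of the gate genes are therefore a description and support nothing. S100a8 ran from 1 to 106 UMIs per cell in DOPAC neutrophils with a median of 7, and from 0 to 191 in Control neutrophils with a median of 27. Csf3r was seen in 9 of the 10 DOPAC neutrophils and in 66 of the 73 Control ones, Cxcr2 in 6 and 42, G0s2 in 2 and 58, and Retnlg in 4 and 42, so no single receptor or secreted marker was present in every cell.

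The mice were of WT genotype and carried tumors of B16-F10, a mouse melanoma line. One group was given DOPAC and the other was given vehicle and is labelled Control. In biochemistry the abbreviation usually stands for dihydroxyphenylacetic acid, a breakdown product of dopamine, but the labels do not spell it out. The design text gives 4 mice per group, CD45+ cells were sorted by flow cytometry, and each group is 1 droplet library with no tag for the mouse, so the design holds no replicate of the treatment. Dose, route and day of harvest were not given in the sources used here. The submitters entered the cell type as lymphocyte and their extraction text names colon, whereas tumor is the tissue in their sample label and design text; neutrophils are granulocytes, not lymphocytes.

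Neutrophils are short-lived granulocytes that leave the bone marrow for the blood and enter tissue along chemokine gradients, largely through the receptor Cxcr2. Their granule proteins are transcribed mainly in the marrow, so that mature cells carry little of that RNA and instead transcribe chemokines, cytokines and surface receptors when they are activated. In tumors they have been described both as killers of tumor cells and as cells that restrain T cells, and mouse tumor neutrophils with raised chemokine and hypoxia genes have been set apart from neutrophils of the blood type.

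Depth differed between the libraries. The 10 DOPAC neutrophils held 10778 UMIs in all, with a median of 1206.5 per cell (690 to 1313) and a median of 586 genes. The 73 Control neutrophils held 225058 UMIs, with a median of 3110 per cell (507 to 8538) and a median of 1158 genes. All kept barcodes had medians of 3677 UMIs in the DOPAC library and 9571.5 in the Control library, so other cells showed a gap as well. Levels are given below as CPM, a gene's UMIs per 1000000 UMIs after summing over the cells of a class, and 1 UMI in the DOPAC neutrophils is worth 92.8 CPM. Intervals are exact 95% Poisson intervals of the sum (Clopper-Pearson for shares). They cover counting error only, not the spread between mice, which 1 library per group cannot show. No p-value is given anywhere for the same reason.

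The label was set beside genes that the gate did not use, with classical monocytes of the same library as the comparison. These were barcodes with at least 2 UMIs of Ly6c2, 1 of Ccr2 and 2 of Csf1r, at most 1 of C1qa plus C1qb and 1 of the neutrophil receptor set, and none of Cd3, Cd79a or Siglech; they numbered 84 in DOPAC and 213 in Control. Their own gate genes (Ly6c2, Ccr2 and Csf1r) are low in neutrophils by choice. Of 21 neutrophil genes outside the gate, 20 had at least 20 UMIs in Control neutrophils and Control classical monocytes together, and 18 of these 20 were at least 2-fold higher in the neutrophils. Across all 7864 genes with that many UMIs, 15% were at least 2-fold higher. The median log2 ratio of the 20 was 3.27, against -0.30 over all genes. The list was chosen with earlier results of these data known, so it is no independent check of the label. Markers of other cells were low, with monocyte and NK cell genes as exceptions in Control. T cell markers (Trac, Cd8a and 5 more) gave 1 UMI in DOPAC neutrophils and 12 in Control neutrophils, and B cell markers gave 0 and 15. The 7 eosinophil markers (Epx, Prg2, Il5ra, Ccr3 and 3 ribonucleases of the Ear family) gave 0 UMIs in both libraries, and melanoma cell markers gave 0 in DOPAC and 8 in Control. The 9 monocyte and macrophage markers gave 6 UMIs in DOPAC neutrophils, of which 4 were in 1 cell, and 146 in Control neutrophils, spread over 51 cells, with 33 in 1 cell. That is 557 CPM in DOPAC neutrophils and 649 CPM in Control neutrophils, against 3004 CPM in Control classical monocytes. NK cell markers gave 1 UMI in DOPAC neutrophils and 68 in Control neutrophils, of which 39 were in 1 cell, or 92.8 CPM and 302 CPM, with 69.4 CPM in Control monocytes. The part of these cells' RNA in the results below was not tested.

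UMIs of the gate gene S100a8 were rare in gated T cells, and those of the leading chemokine Cxcl2 were more common there. The source of these T cell UMIs, such as free RNA in the droplets or cells caught together, was not tested. With each cell thinned to 500 UMIs, S100a8 was seen in 100% of DOPAC and 86.3% of Control neutrophils, and in 0.112% of DOPAC and 0.137% of Control T cells. Cxcl2 was seen in 90% of DOPAC and 94.5% of Control neutrophils, and in 10.1% of DOPAC and 12.4% of Control T cells, which should lack it. Without thinning Cxcl2 was seen in 90% and 95.9% of DOPAC and Control neutrophils and in 50.4% and 79.1% of the T cells. The T cells had medians of 4553 UMIs in DOPAC and 6440 in Control. Cxcl2 in a neutrophil was therefore well above the level of T cells, whereas a single Cxcl2 UMI in any other cell says little.

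The maturity genes were those of cells past the marrow stages. The 6 primary granule genes (Mpo, Elane, Prtn3, Ctsg, Ms4a3 and Fcnb), which promyelocytes transcribe, gave 0 UMIs in both libraries. Among secondary granule genes, the cathelicidin Camp and Ngp gave 0 UMIs in both, and lactoferrin (Ltf) gave 1 UMI in each. An exception was Lcn2, the iron-carrier scavenger lipocalin, which gave 1 UMI in DOPAC neutrophils and 148 UMIs in Control neutrophils. Its level was 92.8 CPM (2.35 to 517) in DOPAC neutrophils, 658 CPM (556 to 772) in Control neutrophils and 25.5 CPM in Control classical monocytes. Mmp9, the gelatinase of the last-formed granules, stood at 742 CPM (320 to 1463) in DOPAC neutrophils and 698 CPM (593 to 816) in Control neutrophils. Ly6g, the surface protein most used to sort mouse neutrophils, gave 0 UMIs in DOPAC and 2 in Control, so at this depth its RNA marked almost none of these cells. Siglecf, used to mark a class of tumor neutrophils, gave 0 UMIs in DOPAC and 1 in Control.

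Neutrophils made up 0.0991% (0.0475 to 0.182) of kept barcodes in the DOPAC library and 0.865% (0.678 to 1.09) in the Control library. The difference was -0.765 percentage points (Newcombe interval -0.991 to -0.570). With the receptor sum raised to 4, the shares were 0.0396% in DOPAC (4 cells) and 0.758% in Control. Other gated classes differed between the libraries as well: gated T cells were 3564 barcodes in DOPAC and 732 in Control, and gated macrophages were 95 and 795. Set against myeloid cells alone, neutrophils were 10 of 189 neutrophils, classical monocytes and macrophages in DOPAC, or 5.29% (2.57 to 9.51), and 73 of 1081 in Control, or 6.75% (5.33 to 8.42). The intervals of the shares of all barcodes did not overlap, and the intervals of the shares among myeloid cells did. Whether the treatment, the mice, the sort or the library set the share cannot be told apart with 1 library per group.

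The gate cut the libraries at different steps. The S100 threshold left 42 DOPAC barcodes and 126 Control barcodes, and the receptor threshold left 19 and 109. The limits on Csf1r and on C1qa plus C1qb left 18 DOPAC barcodes and 87 Control barcodes. The demand for no Cd3 UMI then removed 8 DOPAC barcodes and 9 Control barcodes, and that for no Cd79a removed 0 and 5. Near the receptor threshold, 4 DOPAC and 5 Control members sat at 2 UMIs, while 3 DOPAC and 4 Control barcodes that passed all other conditions sat at 1. At 4 UMIs of S100a8 plus S100a9, just under the threshold, stood 0 DOPAC and 3 Control barcodes. The S100 sum per member had a median of 30 UMIs (6 to 198) in DOPAC and 71 UMIs (5 to 523) in Control, and the receptor sum had a median of 3 (2 to 24) in DOPAC and 12 (2 to 112) in Control. With Control barcodes thinned to the median depth of the DOPAC library, the gate found 66 Control neutrophils, or 0.798%. The libraries shared 32 barcode sequences, none of which was a neutrophil in either.

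Chemokine genes are described first, by the receptor they act on. Cxcl2, a ligand of Cxcr2 that draws in further neutrophils, gave 396 UMIs in 9 of 10 DOPAC neutrophils and 6746 UMIs in 70 of 73 Control neutrophils. Its level was 36742 CPM (33211 to 40545) in DOPAC neutrophils and 29974 CPM (29263 to 30698) in Control neutrophils. Classical monocytes of the Control library had 10229 CPM and macrophages 8505 CPM, so the Control neutrophils stood 2.93-fold (2.85 to 3.01) above the monocytes. Cxcl3, its neighbour on chromosome 5, stood at 371 CPM (101 to 950) in DOPAC neutrophils, 866 CPM (749 to 997) in Control neutrophils and 287 CPM in Control monocytes. Cxcl1, the third ligand of that cluster, was no higher in neutrophils: 92.8 CPM (2.35 to 517) in DOPAC neutrophils and 218 CPM (161 to 288) in Control neutrophils, with 275 CPM in Control monocytes. Cxcl5 gave 0 UMIs in both. Ccl3, a chemokine that acts on Ccr1, stood at 6124 CPM (4736 to 7791) in DOPAC neutrophils and 6292 CPM (5968 to 6628) in Control neutrophils, and was 4.97-fold (4.67 to 5.30) above the 1265 CPM of Control monocytes. Ccl4, a related chemokine, stood at 2969 CPM in DOPAC neutrophils and 3279 CPM in Control neutrophils, against 2628 CPM in Control monocytes.

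The list was split by target cell. Of its 14 chemokines, 13 could be compared between Control neutrophils and Control classical monocytes, with 3 at least 2-fold higher (Cxcl2, Cxcl3 and Ccl3) and 7 at least 2-fold lower, where all genes gave 15% higher and 29.7% lower. The 7 lower ones included Ccl2 and Ccl7, ligands of the monocyte receptor Ccr2, and Cxcl9 and Cxcl10, ligands of the T cell receptor Cxcr3. Ccl2 gave 92.8 CPM (1 UMI) in DOPAC neutrophils and 178 CPM in Control neutrophils, with 1814 CPM in Control monocytes. Cxcl10 gave 557 CPM (204 to 1212) in DOPAC neutrophils and 196 CPM (142 to 262) in Control neutrophils, with 789 CPM in Control monocytes. The median log2 ratio of the 13 was -1.01.

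The start regions of the genes that lead this group are printed here because they show sequence that the UMI counts cannot. Each is the 250 bases before the RefSeq transcript start (build GRCm38.p6), read 5′ to 3′ on the gene's own strand, with matches to a pair of short motifs in capitals. The NF-kB motif searched was GGG, any 2 bases and TTTCC, and the C/EBP motif was TTNCNNAA, where N is any base, both on either strand, and no match overlapped another in the windows printed; NF-kB and C/EBP are factors of inflammatory and myeloid genes. Of 32851 windows of this length in the RefSeq table, 1.41% held the NF-kB motif and 36.8% the C/EBP motif. The windows are Cxcl2 at chr5:90903649-90903898 (plus strand), Cxcl3 at chr5:90785851-90786100 (plus strand), Ccl3 at chr11:83649379-83649628 (minus strand) and, as the gate gene for comparison, S100a8 at chr3:90668821-90669070 (plus strand).
Cxcl2: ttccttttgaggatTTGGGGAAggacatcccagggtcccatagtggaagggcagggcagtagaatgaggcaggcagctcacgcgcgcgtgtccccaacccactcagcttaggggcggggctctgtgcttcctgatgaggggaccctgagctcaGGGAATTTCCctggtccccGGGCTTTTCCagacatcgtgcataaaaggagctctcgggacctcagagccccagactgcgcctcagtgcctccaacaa
Cxcl3: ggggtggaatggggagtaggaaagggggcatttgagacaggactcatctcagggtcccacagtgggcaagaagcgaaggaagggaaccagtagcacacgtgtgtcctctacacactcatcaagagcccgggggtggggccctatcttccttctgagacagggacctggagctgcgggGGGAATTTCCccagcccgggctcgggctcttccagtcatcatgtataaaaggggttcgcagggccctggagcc
Ccl3: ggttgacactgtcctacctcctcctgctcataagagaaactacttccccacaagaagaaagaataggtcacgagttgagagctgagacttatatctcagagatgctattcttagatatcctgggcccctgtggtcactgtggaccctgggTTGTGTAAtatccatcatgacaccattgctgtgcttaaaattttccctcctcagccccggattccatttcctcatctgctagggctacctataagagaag
S100a8: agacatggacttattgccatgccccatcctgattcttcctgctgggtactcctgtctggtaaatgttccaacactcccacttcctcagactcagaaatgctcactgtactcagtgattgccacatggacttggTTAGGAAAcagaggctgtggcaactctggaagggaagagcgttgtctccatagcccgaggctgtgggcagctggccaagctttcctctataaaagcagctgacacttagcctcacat
The Cxcl2 window held 2 NF-kB matches, GGGAATTTCC at -97 to -88 and GGGCTTTTCC at -78 to -69, counted back from the base before the start, and 1 C/EBP match. Cxcl3 held the same GGGAATTTCC at -73 to -64, and Cxcl1 held it at -71 to -62 beside a second match on the other strand. Ccl3 and S100a8 held none, and each held 1 C/EBP match. Of the chemokine list, 8 of 14 genes had an entry in the table and 4 of these held the NF-kB motif (Cxcl1, Cxcl2, Cxcl3 and Ccl9). A match describes letters in a window. It is not a bound site, and Cxcl1, with 2 matches, was no higher in neutrophils than in monocytes.

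**Figure D1:**
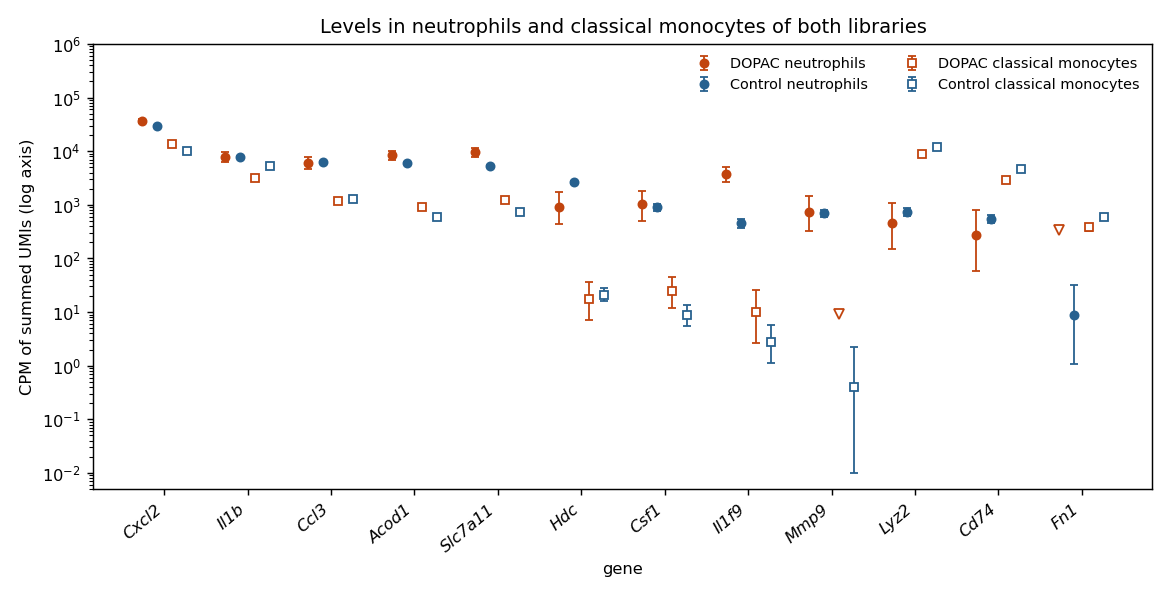
Level of 12 genes (x axis) in CPM of summed UMIs on a log axis, in neutrophils (filled circles) and classical monocytes (open squares) of the DOPAC library (orange) and the Control library (blue); bars are exact 95% Poisson intervals, and an open triangle marks the upper limit of a sum of 0. Cxcl2 through Mmp9 lie higher in the neutrophils of both libraries, Lyz2, Cd74 and Fn1 lie lower, and the DOPAC and Control neutrophil intervals do not overlap for Cxcl2, Acod1, Slc7a11, Hdc and Il1f9.

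Cytokine and growth factor genes followed their own order. Of 16 listed, 14 could be compared with Control monocytes; 7 were at least 2-fold higher and 2 lower in Control neutrophils, against 15% and 29.7% of all genes, with a median log2 ratio of 1.10 against -0.30. Il1b, the inflammatory cytokine, stood at 7794 CPM (6217 to 9649) in DOPAC neutrophils and 7807 CPM (7446 to 8181) in Control neutrophils, only 1.46-fold (1.39 to 1.53) above the 5359 CPM of Control monocytes. Csf1, the growth factor on which macrophages depend, separated the classes far more. It stood at 1021 CPM (509 to 1826) in DOPAC neutrophils and 902 CPM (782 to 1035) in Control neutrophils, while Control monocytes had 8.78 CPM and Control macrophages 11.5 CPM. That is a 103-fold excess over monocytes (66.1 to 168), and 46 of 73 Control neutrophils held a Csf1 UMI. Il1f9, which encodes IL-36 gamma, stood at 3711 CPM (2651 to 5054) in DOPAC neutrophils, 453 CPM (370 to 550) in Control neutrophils and 2.79 CPM in Control monocytes. Il1rn, the antagonist of the IL-1 receptor, was 2.54-fold (2.20 to 2.91) above Control monocytes, at 2691 CPM in DOPAC neutrophils and 1111 CPM in Control neutrophils. Il6 gave 0 UMIs in the neutrophils of both libraries, and 60.2 CPM in Control monocytes. With 225058 UMIs behind the Control value, 0 UMIs limits Il6 to 16.4 CPM there; in DOPAC neutrophils the limit is 342 CPM.

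Enzymes and transporters that stood higher in neutrophils are given next, with Hdc and Mmp9 low in monocytes and Acod1 and Slc7a11 present there at lower levels. Hdc, which makes histamine from histidine, stood at 928 CPM (445 to 1706) in DOPAC neutrophils and 2617 CPM (2410 to 2837) in Control neutrophils. Control monocytes had 21.1 CPM, a 124-fold gap (93.4 to 167), and 69 of 73 Control neutrophils held an Hdc UMI. Acod1, the enzyme that makes itaconate, stood at 8350 CPM (6715 to 10264) in DOPAC neutrophils and 5985 CPM (5670 to 6314) in Control neutrophils, against 590 CPM in Control monocytes. Slc7a11, the membrane exchanger that imports cystine, stood at 9556 CPM (7800 to 11590) in DOPAC neutrophils and 5336 CPM (5039 to 5647) in Control neutrophils, against 745 CPM in Control monocytes. Mmp9 gave 157 UMIs in Control neutrophils and 1 UMI in Control monocytes, a ratio whose counting interval is wide (309 to 69511). These genes lay higher in neutrophils than in monocytes in the DOPAC library too, where monocytes had 17.3 CPM of Hdc, 901 CPM of Acod1, 1230 CPM of Slc7a11 and 0 UMIs of Mmp9.

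Among the 25 genes outside the gate with the greatest ratio of Control neutrophils to the rest of the Control library, several were protease inhibitors and receptors. Stfa2l1, of the stefin family of cysteine protease inhibitors, gave 62 UMIs in DOPAC neutrophils and 171 in Control neutrophils, and none in Control monocytes, which puts the lower bound of the counting interval of the ratio at 511. Its relative Cstdc4 gave 17 UMIs in DOPAC neutrophils and 175 in Control neutrophils, against 1 in Control monocytes. Of the 17 DOPAC UMIs of Cstdc4, 16 were in 1 cell. Genes of this family are near copies of one another, and reads may have been split between them. Mrgpra2b, a Mas-related receptor with a near copy in Mrgpra2a, gave 2 UMIs in DOPAC and 58 in Control neutrophils and 0 in Control monocytes, with a lower bound of 170 for the ratio. Hcar2, the receptor for hydroxybutyrate and niacin, stood at 1206 CPM (642 to 2063) in DOPAC neutrophils and 960 CPM (836 to 1097) in Control neutrophils, against 39.5 CPM in Control monocytes. Asprv1, a retroviral-like protease, stood at 464 CPM (151 to 1083) in DOPAC neutrophils and 706 CPM (601 to 825) in Control neutrophils, against 1.20 CPM in Control monocytes.

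Receptors for chemoattractants and microbes followed. Of 12 chemotactic receptors compared in Control, 7 were at least 2-fold higher than in monocytes and 3 lower, against 15% and 29.7% of all genes, with a median log2 ratio of 1.92. The higher ones included Fpr1, the receptor of bacterial formyl peptides, at 835 CPM (382 to 1585) in DOPAC neutrophils, 222 CPM (165 to 293) in Control neutrophils and 7.18 CPM in Control monocytes. Of the 9 DOPAC UMIs of Fpr1, 7 were in 1 cell. Without the top cell of each library Fpr1 stood at 211 CPM in DOPAC and 197 CPM in Control neutrophils. The higher receptors also included Ccrl2, a binding protein for chemerin, at 1021 CPM in DOPAC neutrophils, 2715 CPM in Control neutrophils and 456 CPM in Control monocytes. The 3 lower ones were C3ar1, Cmklr1 and Ccr2; Ccr2 is part of the monocyte gate. Of 12 pattern recognition genes compared, 9 were at least 2-fold higher and 0 lower by the same measure, with a median of 1.55. Clec4d, a lectin for fungal and mycobacterial surfaces, stood at 3526 CPM (2495 to 4839) in DOPAC neutrophils and 3186 CPM (2957 to 3428) in Control neutrophils, with 613 CPM in Control monocytes. Nlrp3, the inflammasome sensor, stood at 2598 CPM in DOPAC neutrophils, 1795 CPM in Control neutrophils and 619 CPM in Control monocytes. Trem1, which amplifies such signals, stood at 649 CPM in DOPAC neutrophils, 866 CPM in Control neutrophils and 73.4 CPM in Control monocytes.

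Genes named for suppressor neutrophils lay on both sides of monocytes. Of 14 compared, 6 were at least 2-fold higher and 5 lower than in Control monocytes, where all genes gave 15% and 29.7%, with a median log2 ratio of 0.32. The arginases went opposite ways: Arg2 stood at 928 CPM (445 to 1706) in DOPAC neutrophils, 680 CPM (576 to 796) in Control neutrophils and 130 CPM in Control monocytes. Arg1, the form usually measured in suppressive myeloid cells, gave 0 UMIs in DOPAC neutrophils, 35.5 CPM (15.3 to 70.0) in Control neutrophils and 546 CPM in Control monocytes. Cd274, which encodes PD-L1, stood at 2412 CPM (1576 to 3535) in DOPAC neutrophils, 1093 CPM (961 to 1239) in Control neutrophils and 372 CPM in Control monocytes. Entpd1, the ectoenzyme CD39, stood at 2320 CPM (1501 to 3424) in DOPAC neutrophils, 951 CPM (828 to 1087) in Control neutrophils and 246 CPM in Control monocytes. Nos2 gave 0 UMIs in DOPAC and 1 in Control.

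The genes that lay far below monocytes were of antigen presentation, matrix and lysozyme. Of the 8 MHC class II and costimulation genes, 7 were at least 2-fold lower in Control neutrophils than in Control monocytes, against 29.7% of all genes (median -2.95). Cd80, a costimulatory ligand, was the exception, at 0 UMIs in DOPAC neutrophils, 284 CPM (219 to 363) in Control neutrophils and 120 CPM in Control monocytes. Cd74, the class II chaperone, stood at 278 CPM (57.4 to 813) in DOPAC neutrophils, 542 CPM (450 to 647) in Control neutrophils and 4693 CPM in Control monocytes. Lyz2, lysozyme, stood at 464 CPM (151 to 1083) in DOPAC neutrophils, 738 CPM (630 to 859) in Control neutrophils and 11804 CPM in Control monocytes. Fn1, fibronectin, gave 0 UMIs in DOPAC neutrophils and 2 UMIs in Control neutrophils, with 1491 UMIs in Control monocytes. Free RNA from the far more numerous macrophages was not tested as a source of these low counts. The oxidase that makes superoxide was uneven. Its catalytic chain Cybb stood at 0 UMIs in DOPAC neutrophils and 387 CPM (310 to 477) in Control neutrophils, against 1291 CPM in Control monocytes. Its organiser Ncf1 stood at 371 CPM in DOPAC neutrophils, 746 CPM in Control neutrophils and 108 CPM in Control monocytes. The 87 UMIs of Cybb in Control neutrophils lay in 17 of 73 cells, with 19 in 1 cell. The 168 of Ncf1 lay in 54 cells.

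**Figure D2:**
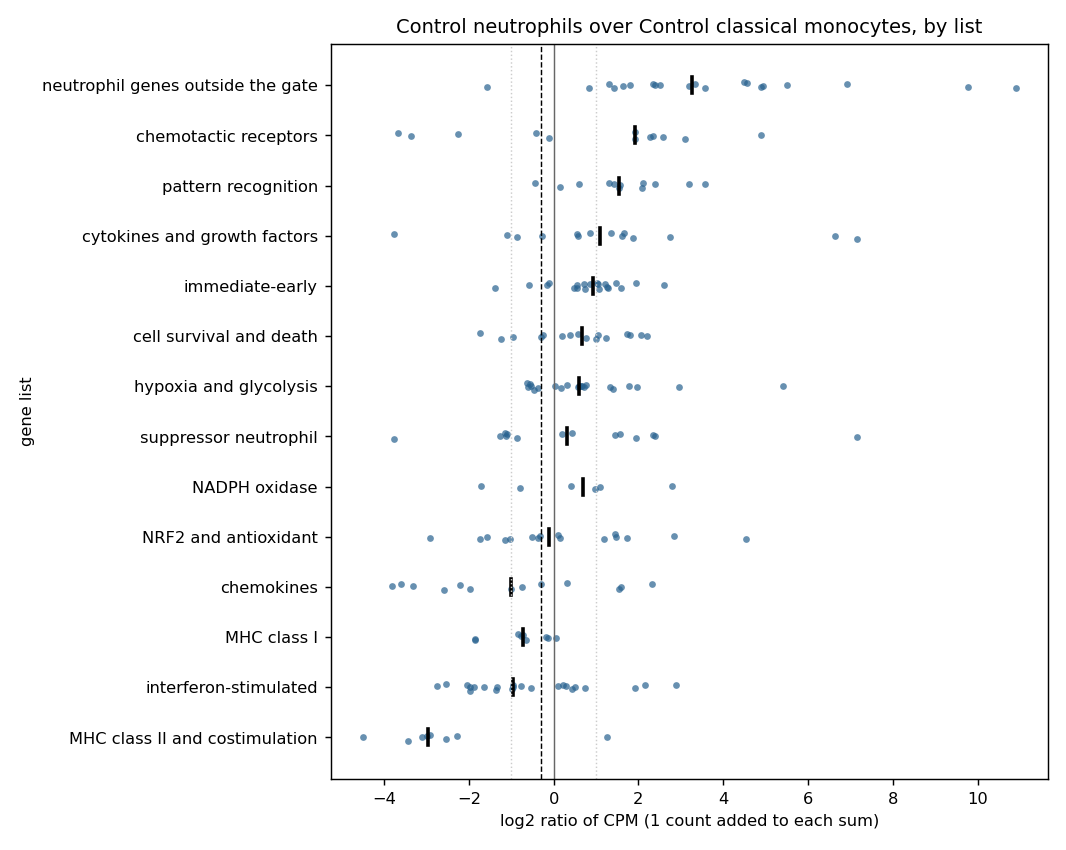
Log2 ratio of Control neutrophils over Control classical monocytes (x axis) for each gene with at least 20 UMIs in the 2 sums, by gene list (y axis); black bars are list medians, the dashed line is the median of all 7864 genes (-0.30), and dotted lines mark 2-fold. Neutrophil genes outside the gate have the highest median (3.27) and MHC class II and costimulation genes the lowest (-2.95) of the lists drawn.

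The Control neutrophils differed among themselves, and their variation was read in 69 cells thinned to 1000 UMIs each, with 4 shallower cells left out. Over 926 genes with a mean of at least 0.2 UMIs, the median of variance over mean was 1.34, where pure counting noise gives about 1. Fth1, ferritin heavy chain, reached 21.0 and Cxcl2 18.4. Cxcl2 ran over the cells from 0 to 100 UMIs per 1000, with a median of 26 and with 13 and 44 at the quartiles. Ccl3 ran from 0 to 32 with a median of 3, and Ccl4 from 0 to 26 with a median of 0. The chemokines were thus spread unevenly over cells of 1 library, and Ccl4 was absent from 37 of 69 at this depth.

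The level of the tumor-type list (23 genes, among them Cxcl2, Ccl3, Cd274, Il1rn and Spp1) ran from 5 to 166 UMIs per 1000 with a median of 49. The sum of S100a8 and S100a9 ran from 1 to 149 with a median of 23. Over the 69 cells the pair went in opposite directions, with Spearman's rho of -0.49. With Cxcl2 left out and the list, but not the S100 sum, measured per UMI outside the S100 genes, rho was -0.48. Thinned counts share a fixed total, so abundant measures are not independent of each other. Taking the S100 genes out of the total by which the list was measured changed rho little. Cxcl2 and Ccl3 went together (rho 0.50), and the blood-type list went with S100 (rho 0.38) but not with the tumor-type list (rho 0.11). Fth1 had a rho of 0.09 with S100. The tumor-type list had a rho of 0.22 with a cell's unthinned UMIs. These values describe 69 cells of a single library that share its depth and free RNA, and Retnlg and S100 genes also chose the cells. Retnlg, a resistin-like secreted protein, and Ccl3 were found together in 17 cells, Retnlg alone in 12, Ccl3 alone in 35 and neither in 5, so they were not exclusive. Of the 27 cells with a Csf1 UMI, 25 also held Ccl3.

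**Figure D3:**
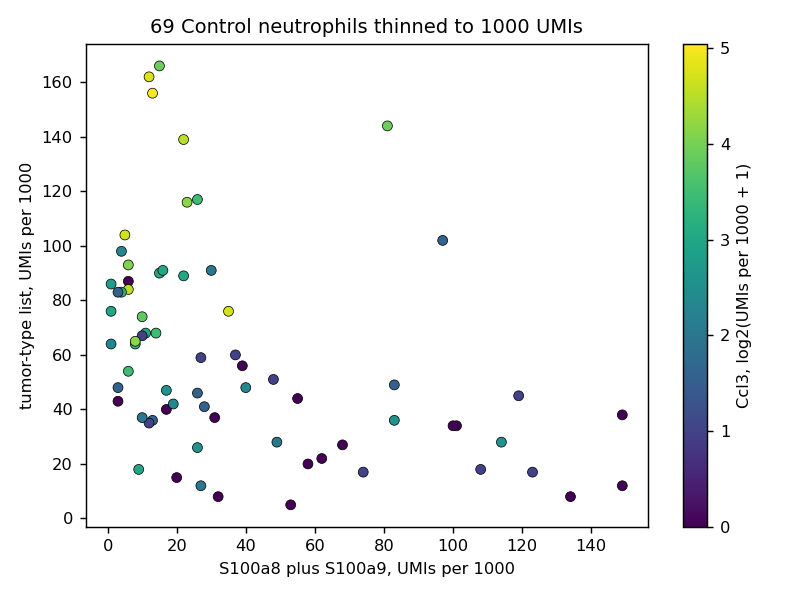
Each point is 1 of 69 Control neutrophils thinned to 1000 UMIs, with S100a8 plus S100a9 on the x axis and the tumor-type list on the y axis, both in UMIs per 1000, coloured by Ccl3. The cells form a continuous spread from high S100 with few tumor-type UMIs to low S100 with many (Spearman's rho -0.49), and most of the cells with high Ccl3 lie at low S100.

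Some of the most variable genes belonged to a few cells. Hsp90aa1, a chaperone of the heat-shock response, had a variance over mean of 17.9, and 88% of its thinned UMIs lay in 7 cells. The inducible chaperones Hspa1a and Hspa1b were seen in 5 and 6 cells, 4 of them shared. All 4 cells with at least 3 Hsp90aa1 UMIs were among the 7 cells with either Hspa1 gene. Those 7 cells had a median of 2517 UMIs and 55 S100 UMIs per 1000, against 3190 and 22 in the other 62 cells, and median mitochondrial shares of 0.596% and 1.11%. Cstdc5, a stefin relative, lay wholly in 1 cell.

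DOPAC neutrophils were compared with Control neutrophils as a pair of libraries, 10 cells against 73, over the 1839 genes whose pair of sums held 20 UMIs or more. Of these genes 23.2% were at least 2-fold higher in DOPAC and 7.56% at least 2-fold lower (426 and 139 genes), and the median log2 ratio was 0.26. Scaling by the median of ratios, from 63 genes, put that median at -0.07 and gave 258 higher and 257 lower genes, and other settings moved the balance as far. A filter of 50 UMIs gave 110 higher and 110 lower genes, and 0.5 counts added in place of 1 gave 344 higher and 455 lower. Taking the 1768 genes with 20 UMIs in Control neutrophils alone, with no count added, gave 220 higher (12.4%) and 576 lower (32.6%). No balance of higher and lower genes held under all of these settings. Many of the leading genes of Control neutrophils stood close in DOPAC: Cxcl2 at a ratio of 1.23 (1.10 to 1.36), Ccl3 at 0.973 (0.749 to 1.25), Il1b at 0.998 (0.792 to 1.24), Csf1 at 1.13 (0.556 to 2.07) and Mmp9 at 1.06 (0.451 to 2.15). These intervals are of counting error only and allow sizeable differences for Csf1 and Mmp9. The DOPAC Ccl3 level rests in good part on 1 cell with 35 of its 66 UMIs; without the top cell of each library it was 3224 CPM in DOPAC and 5953 CPM in Control.

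Interferon-stimulated genes come first in DOPAC over Control. These are genes switched on by interferons, many of them antiviral. Of 24 listed, 14 had enough UMIs, and 11 of the 14 were at least 2-fold higher in DOPAC and 0 lower, where all genes gave 23.2% higher and 7.56% lower. The median log2 ratio was 1.74 against 0.26 over all genes. The filter on summed UMIs passes low Control genes more readily where DOPAC cells are high, and the 1 count added raises DOPAC values, so the 14 do not stand for all 24. Among the 12 with 20 UMIs in Control neutrophils alone, and with no count added, 8 were at least 2-fold higher and 0 lower, with a median of 1.52, where all genes gave 12.4% higher and a median of -0.32. Summed over the list, DOPAC neutrophils had 145 UMIs, or 13453 CPM (11353 to 15830), and Control neutrophils had 955 UMIs, or 4243 CPM (3978 to 4521). Without the top cell of each library the sums were 10904 CPM in DOPAC and 3927 CPM in Control. With every cell thinned to 500 UMIs, the 10 DOPAC cells held 1, 2, 3, 5, 6, 6, 9, 10, 14 and 26 UMIs of the list, and the 73 Control cells held 0 to 13 with a median of 2. The cells of the 2 libraries overlapped, and the DOPAC median was 6.

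Within the list, Rsad2, the antiviral enzyme viperin, gave 22 UMIs in 5 of 10 DOPAC cells and 78 UMIs in 21 of 73 Control cells, or 2041 CPM (1279 to 3090) in DOPAC cells against 347 CPM (274 to 433) in Control cells. The ratio was 5.89 (3.49 to 9.55), with 12 of the DOPAC UMIs in 1 cell. Ifit1, which binds viral RNA, gave 928 CPM (445 to 1706) in DOPAC cells against 71.1 CPM (40.6 to 115) in Control cells. Gbp2, a guanylate-binding GTPase, gave 742 CPM (320 to 1463) in DOPAC cells against 80.0 CPM (47.4 to 126) in Control cells. Ifit1 and Gbp2, with 16 and 18 UMIs in Control cells, passed the filter only with their DOPAC UMIs. Of the 10 DOPAC UMIs of Ifit1, 5 were in 1 cell. Irf1, an interferon response factor, gave 1113 CPM (575 to 1945) in DOPAC cells against 240 CPM (180 to 313) in Control cells. Ifitm3, a membrane protein that blocks virus entry, gave 2227 CPM (1427 to 3313) in DOPAC cells against 755 CPM (646 to 878) in Control cells. The ubiquitin-like Isg15 differed less, at 649 CPM (261 to 1338) in DOPAC cells against 404 CPM (326 to 496) in Control cells, with intervals that overlap. Slfn1, also of the list, gave 6 UMIs in DOPAC cells and 91 in Control cells, where Isg15 gave 7 and 91. At 500 UMIs per cell Rsad2 was seen in 50% of DOPAC and 12.3% of Control neutrophils, and in 1.96% of DOPAC and 0.683% of Control T cells.

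The same genes were weighed in other cells of the same libraries. Over the 12 genes chosen by their Control UMIs alone, the median log2 ratio of DOPAC over Control was 1.52 in neutrophils, 0.68 in classical monocytes and 0.05 in all barcodes other than neutrophils. At least 2-fold higher in DOPAC was 1 of the 12 in monocytes, where all genes gave 6.24%. Over the barcodes other than neutrophils, 0 of the 14 genes of the first filter were at least 2-fold higher, where all genes gave 9.1%. The neutrophil and monocyte medians thus had the same sign, and the difference between them was not tested. In Control neutrophils over Control monocytes the list had a median of -0.95, with 3 of 23 genes at least 2-fold higher and 9 lower, shares near the 15% and 29.7% over all genes.

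MHC class I genes were uneven. Of 9 listed, 7 had enough UMIs and 5 of the 7 were at least 2-fold higher in DOPAC neutrophils, against 23.2% of all genes, with a median log2 ratio of 1.60. Nlrc5 and Psmb9, each with 19 UMIs in Control, passed the filter only with their DOPAC UMIs, and Psmb8 was at a ratio of 1.90 without the added count. Of the 5 genes with 20 UMIs in Control neutrophils alone, 2 (B2m and Tapbp) were at least 2-fold higher with no count added. None of the 5 was lower, and the median was 0.92. All genes by this filter gave 12.4% higher and 32.6% lower, with a median of -0.32. Over the same 5 genes the median was 0.17 in classical monocytes and 0.06 in all barcodes other than neutrophils. B2m, the light chain of class I molecules, gave UMIs in all 10 DOPAC cells and in 68 of the 73 Control cells, at 4082 CPM (2966 to 5480) in DOPAC cells against 1373 CPM (1224 to 1535) in Control cells. Nlrc5, the factor that switches on class I genes, stood at 1299 CPM (710 to 2179) in DOPAC cells against 84.4 CPM (50.8 to 132) in Control cells. The heavy chain H2-D1 did not follow, at 1113 CPM (575 to 1945) in DOPAC cells against 1111 CPM (977 to 1257) in Control cells, nor did H2-K1, at 464 CPM (151 to 1083) in DOPAC cells against 484 CPM (398 to 584) in Control cells. Class I heavy chains are near copies, and reads may have been shared among them. At 500 UMIs per cell the list gave 2 to 9 UMIs in DOPAC cells with a median of 3, and 0 to 6 in Control cells with a median of 1.

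**Figure D4:**
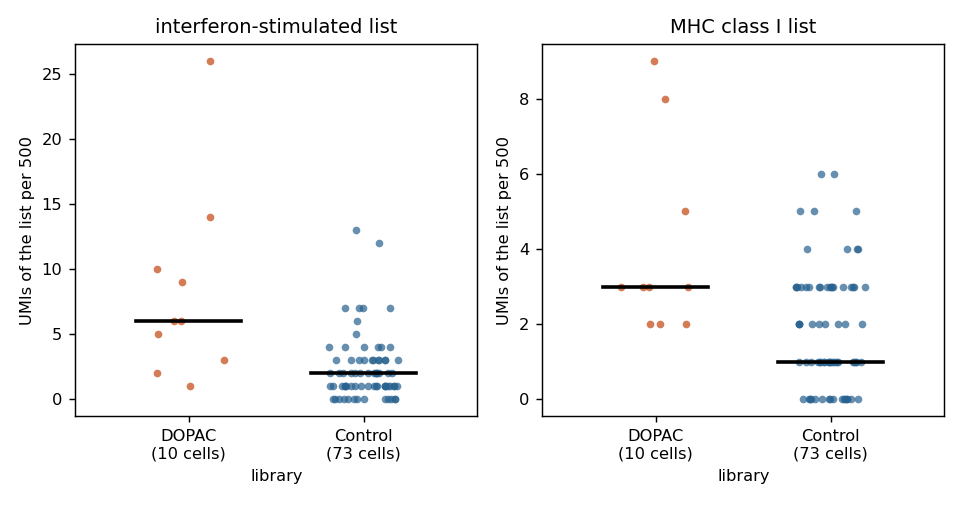
UMIs of the interferon-stimulated list (left panel) and the MHC class I list (right panel) in each neutrophil thinned to 500 UMIs, by library (x axis); each point is 1 cell and black bars are medians. The DOPAC cells have medians of 6 and 3 and the Control cells of 2 and 1, and the ranges of the libraries overlap in both panels.

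**Figure D5:**
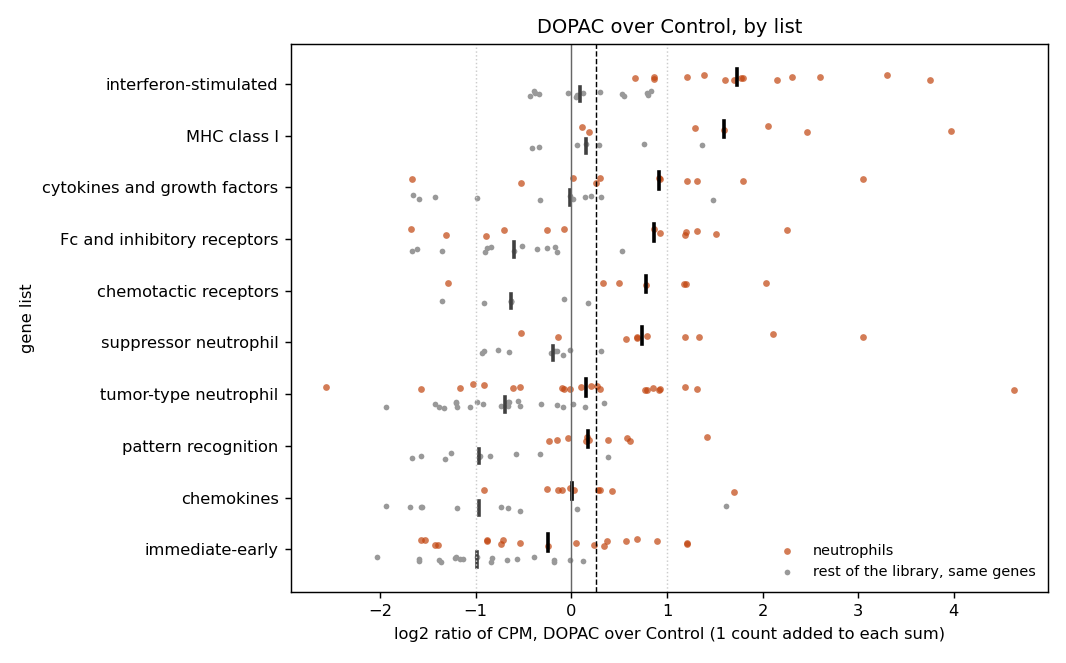
Log2 ratio of DOPAC over Control (x axis) by gene list (y axis) for neutrophils (orange) and, for the same genes, for all other barcodes of the libraries (grey); bars are medians, the dashed line is the median of all 1839 neutrophil genes (0.26), and dotted lines mark 2-fold. Interferon-stimulated and MHC class I genes have the highest neutrophil medians of the lists drawn (1.74 and 1.60), while chemokines have a median of 0.00.

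Both lists moved with the strictness of the gate. With the receptor sum raised to 4, which left 4 DOPAC and 64 Control neutrophils, the interferon median was 1.03 and the class I median 0.89, close to a median of 0.81 over all genes. Under the median of ratios they were 1.40 and 1.26. With a filter of 50 UMIs in place of 20 the class I median was 0.19.

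Of the genes with the largest ratios by the bound nearest 1, several rested on 1 cell. Spp1, osteopontin, gave 69 UMIs in DOPAC neutrophils, of which 68 were in 1 cell, and 58 in Control neutrophils. Its level was 6402 CPM in DOPAC and 258 CPM in Control, but 104 CPM and 212 CPM without the top cell of each library, which turns the direction. Stfa2l1 gave 5752 CPM in DOPAC, with 54 of 62 UMIs in 1 cell, and 760 CPM in Control; without the top cells it was 845 CPM in DOPAC and 676 CPM in Control. Il1f9 was different. It gave 40 UMIs in 8 of 10 DOPAC cells with no more than 9 in any, and 102 UMIs in 29 of 73 Control cells with no more than 13. The ratio was 8.19 (5.53 to 11.9), and its log2 was 3.06, or 3.01 without the top cells. At 500 UMIs per cell Il1f9 was seen in 70% of DOPAC and 13.7% of Control neutrophils and in 0% of the monocytes of either library. Nampt, which makes the NAD precursor, stood at 1299 CPM (710 to 2179) in DOPAC cells against 173 CPM (123 to 237) in Control cells. Ifi207 and Ifi204, interferon-inducible DNA-binding proteins outside the list, had ratios of 8.23 (3.97 to 16.1) and 7.31 (3.67 to 13.7); they belong to a family of near copies. Of the 14 DOPAC UMIs of Ifi204, 9 were in 1 cell, and without the top cell of each library it stood at 528 CPM in DOPAC and 149 CPM in Control.

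The genes lower in DOPAC neutrophils by the same rule included Nfkbia, Hdc, Ccrl2 and several mitochondrial genes. Nfkbia, the inhibitor of NF-kB that NF-kB itself induces, gave UMIs in 9 of the 10 DOPAC cells and in 69 of the 73 Control cells, at 2783 CPM (1878 to 3974) in DOPAC cells against 8527 CPM (8149 to 8917) in Control cells. Its log2 ratio was -1.57, against -1.01 in monocytes and -1.38 in the other barcodes. Hdc had a log2 ratio of -1.36, against -0.12 in monocytes, at the levels given above. Ccrl2 had -1.29 in neutrophils and -0.91 in monocytes. The mitochondrial gene mt-Nd1 gave 1 UMI in DOPAC and 297 in Control, and mt-Nd2 gave 0 and 246, for a DOPAC over Control ratio of at most 0.315 by the counting interval. In DOPAC and Control monocytes mt-Nd1 stood at 1527 and 1700 CPM and mt-Nd2 at 1361 and 1407 CPM. The median mitochondrial share per neutrophil was 0.673% in DOPAC and 0.957% in Control. Hilpda, a lipid droplet protein induced by hypoxia, gave 0 UMIs in DOPAC and 123 UMIs in 18 Control cells, for a ratio of at most 0.636 by the counting interval. Prdx5, a peroxiredoxin, gave 2 UMIs in DOPAC and 237 in Control.

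Other lists had lower median log2 ratios than the interferon-stimulated and MHC class I lists. With 20 UMIs in the pair of sums, 23.2% of all genes were higher and 7.56% lower (median 0.26). Of 11 cytokine and growth factor genes, 4 were at least 2-fold higher and 1 lower in DOPAC (median 0.92), against a median of -0.26 in monocytes. The higher ones were Il1rn, Il1f9, Il15 and Tnfsf14, the last at 2 UMIs in DOPAC and a ratio of 1.61 without the added count; Il15, a growth factor of NK and memory T cells, stood at 835 CPM (382 to 1585) in DOPAC cells against 262 CPM (200 to 338) in Control cells. Of 10 suppressor genes, 4 were at least 2-fold higher and 0 lower (median 0.74). They were Wfdc17, Il1f9, Cd274 and Entpd1, and they were at least 2-fold higher with no count added as well. Cd274 had a ratio of 2.21 (1.41 to 3.31) and Entpd1 one of 2.44 (1.54 to 3.70). The 25 DOPAC UMIs of Entpd1 lay in 4 of 10 cells, with 10 in 1 cell. Its 214 Control UMIs lay in 55 of 73 cells. Without the top cell of each library the log2 ratio of Entpd1 was 0.87, below 2-fold. Those of Wfdc17, Il1f9 and Cd274 were 1.90, 3.01 and 1.05. Of 13 Fc and inhibitory receptor genes, 5 were higher and 2 lower (median 0.86). The higher ones included Lilrb4a, an inhibitory receptor, at 2783 CPM (1878 to 3974) in DOPAC cells against 1151 CPM (1015 to 1300) in Control cells. Of 22 tumor-type genes, 3 were higher and 4 lower (median 0.15), and of 19 immediate-early genes, 2 were higher and 4 lower (median -0.25, with -0.41 in monocytes). With 20 UMIs in Control alone and no count added, all genes gave 12.4% higher and 32.6% lower (median -0.32). The cytokine list then gave 3 of 11 higher and 2 lower (median 0.18). The Fc list gave 4 of 13 higher and 5 lower (median -0.08). By that measure the suppressor list gave 4 of 10 higher and 2 lower (median 0.64). The tumor-type list gave 3 of 22 higher and 7 lower (median -0.02), near the shares of all genes. The immediate-early list gave 2 of 19 higher and 9 lower (median -0.56). Il1f9 and Cd274 each stand in more than 1 of these lists, so the lists are not separate counts.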

How the data were processed

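The deposited files hold raw UMI counts per gene and barcode. Per the file headers the authors' software was Cell Ranger 7.0.1, and per the submitters' processing notes the build was GRCm38. Barcodes numbered 10777 in the DOPAC library and 9629 in the Control library. Cells were filtered and gated as the report states, classical monocytes and macrophages were gated on their own genes, and counts were summed per class and scaled to CPM. Ratios are of CPM with an exact conditional 95% interval, and log2 ratios have 1 count added to each sum. Genes needed 20 UMIs in both sums together. With 1 library per group no test was run, and the 4 mice per group cannot be told apart. The members and gene lists were chosen with earlier results of these data known.

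Text names 25 genes by ratio of Control neutrophils to the rest among genes in at least 20% of them, 10 in each direction for each of DOPAC over Control and neutrophils over monocytes by the interval bound nearest 1, 15 by variance over mean, and members of the lists. Doublets were kept: Scrublet marked 339 Control barcodes, 2 of them neutrophils, and 0 of 10095 DOPAC barcodes, so its automatic threshold did not work there. Leaving out the highest scores was an alternative. Promoters are RefSeq sequences of GRCm38.p6, whose coordinates are printed in that build. Other filters, gates, scalings and depths were tried, and the gate without macrophage limits, the thinned Control library and the filter on Control UMIs with no count added were chosen after seeing the data. Ratio and thinning steps were tested on simulated data. Python 3.11.15 was used with numpy 2.4.6, scipy 1.17.1, pandas 2.3.3, scanpy 1.11.5 and matplotlib 3.10.9.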

Additional observations from a re-analysis of the deposited data

How the results depend on the processing

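No paired analysis was possible because each group is 1 library and both libraries carry the replicate number 1; for the same reason no replicate could be left out. Of 90 main values under alternatives, 71 kept their size and 19 moved. A receptor sum of at least 4 gave a DOPAC share of 0.0396% and, of genes at least 2-fold apart in DOPAC over Control neutrophils, 662 higher and 57 lower, against 426 and 139. The median of ratios gave 258 and 257 there and 711 higher genes, against 1176, in Control neutrophils over Control monocytes. It moved the median over all genes to -0.07 from 0.26 for DOPAC over Control and to -0.73 from -0.30 for neutrophils over monocytes. For DOPAC over Control, filters of 10, 50 and 1 UMIs gave 875, 110 and 7290 higher genes with 139, 110 and 139 lower, 0.5 counts added gave 344 higher and 455 lower genes, which turns the balance, 20 Control UMIs with no count added (chosen after seeing the data) gave 220 higher and 576 lower, the gate without limits on macrophage genes gave 841 higher genes, and Control thinned to the DOPAC depth gave 151. For neutrophils over monocytes, filters of 50 and 1 UMIs gave 738 and 6270 higher genes, and the gate without macrophage limits gave 1287 lower genes against 2333. Cxcl2 variance over mean was 32.1 at 2000 UMIs per cell and 8.75 at 500. Spp1 in DOPAC over Control turned to -0.98 with an S100 sum of at least 20 and to -0.32 with a receptor sum of at least 4, and 68 of its 69 DOPAC UMIs lay in 1 cell. The causes of these changes were not tested. The DOPAC values rest on 10 cells and 10778 UMIs, so a gene with no UMI there may still stand at up to 342 CPM.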

Other observations

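Survival and hypoxia genes were compared in Control neutrophils over Control monocytes, where 15% of all genes were at least 2-fold higher and 29.7% lower. Of 16 genes of cell survival and death, 7 were at least 2-fold higher and 2 lower, with a median log2 ratio of 0.67. Mcl1, which holds back apoptosis in neutrophils, stood at 1856 CPM in DOPAC neutrophils, 2124 CPM in Control neutrophils and 910 CPM in Control monocytes. Birc3, an inhibitor of apoptosis, stood at 835 CPM in DOPAC neutrophils, 946 CPM in Control neutrophils and 274 CPM in Control monocytes. Of 21 hypoxia and glycolysis genes, 6 were at least 2-fold higher and 0 lower, with a median of 0.59. Slc2a3, a glucose transporter, stood at 742 CPM in DOPAC neutrophils, 200 CPM in Control neutrophils and 4.39 CPM in Control monocytes.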
